A study of Mus musculus with 2 samples.

Results

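The 10 genes described here belong to the export of olfactory receptors from the endoplasmic reticulum (ER) and to the unfolded protein response that follows receptor choice. They were taken as a fixed list: Rtp1, Rtp2, Reep1 and Reep6 for export, and Atf5, Atf4, Ddit3, Eif2ak3, Hspa5 and Trib3 for the response. All 10 were found among the 21728 protein-coding gene symbols of the GENCODE M21 annotation on the autosomes and X. For each, the transcription start site (TSS, the annotated 5′ end) was set against the domain boundaries of an in situ Hi-C map of olfactory sensory neurons. Hi-C reads out which stretches of DNA touch in the nucleus, and a boundary is a position that few contacts cross.

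The neurons were sorted by fluorescence from the olfactory epithelium of adult P2-GFP mice of the 129P2/OlaHsd strain, males and females mixed, and were mature cells that express the receptor gene Olfr17. They form 1 group of 2 biological replicates, of 23000 and 20000 cells, fixed in 1% formaldehyde and cut with DpnII, with no other treatment or genotype compared. All cells share the tagged Olfr17 choice, so the map stands for neurons of 1 receptor and not for the epithelium as a whole. The deposited list holds 7576 boundaries, called on the contacts of both replicates combined. It therefore gives 1 value per position, with no spread between replicates and no test. The number of contacts behind it is unknown. The list holds positions and no expression, so the identity of the cells was not checked against marker genes.

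As background, an olfactory receptor leaves the ER poorly by itself. Rtp1 and Rtp2 are small membrane proteins that carry receptors to the cell surface, and Reep1 was found with them as an export helper. In a neuron that has begun to make a receptor, the ER stress kinase Perk, encoded by Eif2ak3, phosphorylates the initiation factor eIF2alpha, and the transcription factor Atf5 is then translated. Atf5 leads to expression of Adcy3, which ends the stress signal and stabilises the receptor choice. Atf4 and Ddit3 (Chop) are the other transcription factors downstream of Perk, Trib3 is a target and inhibitor of them, and Hspa5 (BiP) is the chaperone that holds Perk inactive.

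The genes did not share 1 position in the map of domains. Trib3 and Atf5 lay beside boundaries, at 3.47 and 4.16 kb, while Reep1 and Hspa5 lay 125 and 124 kb from the nearest one. Rtp1 and Rtp2, 503 kb apart on chromosome 16, were placed in different intervals. The boundaries beside Trib3 and Atf5 and those between Rtp1 and Rtp2 were all Weak, the lower of the authors' score classes. With Strong boundaries alone, Trib3 lay 103 kb and Atf5 319 kb from the nearest, and Rtp1 and Rtp2 shared 1 interval. The intervals between flanking boundaries ran from 90 kb around Rtp2 to 460 kb around Hspa5.

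A TSS within 25 kb of a boundary midpoint was counted as near. Of the 10 genes, 4 were near: Trib3, Atf5, Atf4 and Rtp1. The boundary near Atf4 was Strong, and those near Trib3, Atf5 and Rtp1 were Weak. Among all protein-coding genes the share was 23.9%. With 10 genes each gene is 10% of the list, and nothing is read from the difference. At 10 kb the count was 2, beside 11.5% of all genes, and at 50 kb it was 6, beside 43.2%. The median distance was 40.8 kb over the 10 genes and 59.3 kb over all genes, and the median interval was 285 and 275 kb. By role, 1 of the 4 export genes and 3 of the 6 response genes were within 25 kb.

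**Figure D1:**
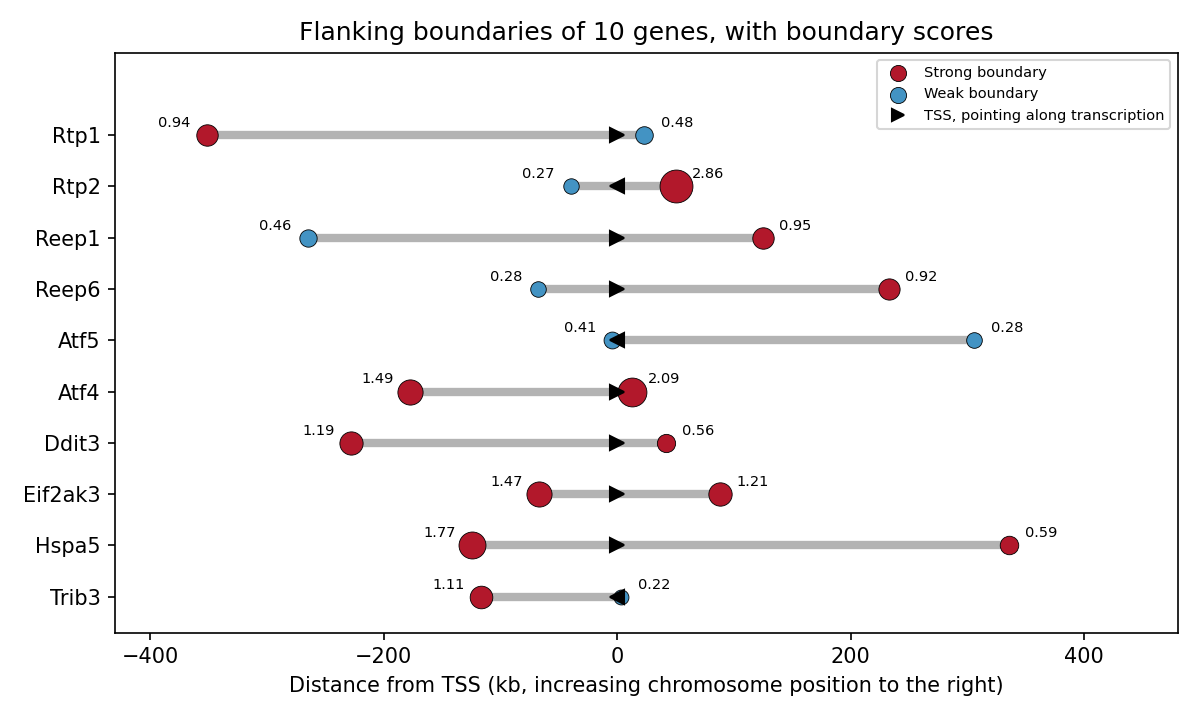
Each row is 1 gene, with its TSS at 0 kb as an arrowhead along transcription, the flanking boundaries as circles (red Strong, blue Weak, area growing with the score printed beside them) and the interval as a grey bar. Rtp2 has the shortest bar, 90 kb, and the highest score, 2.86, while the arrowheads of Trib3 and Atf5 touch a Weak boundary.

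The 10 genes had 20 different flanking boundaries. The authors' class was Strong for 13 and Weak for 7. Of the flanking boundaries of all protein-coding genes, counted once per gene and side, 63.1% were Strong. The nearest boundary was Strong for 5 of the 10 genes, beside 64.4% of all genes. In the whole list 4045 were Strong. The class is a cut of the deposited boundary score, for which no unit is stated. Weak scores ended at 0.4996 and Strong ones began at 0.5002. The median score was 0.931 over the 20 boundaries, 0.659 over the flanking boundaries of all genes and 0.545 over the list. Atf4, Ddit3, Eif2ak3 and Hspa5 had Strong boundaries on both sides, as did 38.6% of all genes. Atf5 alone of the 10 had Weak boundaries on both sides, as did 12.4% of all genes. The other 5 had one of each class.

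The sequences at these boundaries differ in kind, and the following are shown because they make that difference visible. CTCF, the zinc finger protein that stops loop extrusion by cohesin, binds a motif with a direction. Its 12-letter core consensus was searched on both strands within 10 kb of each boundary midpoint. Each line gives 30 bases of GRCm38, 5′ to 3′ on the strand of the match, with the core in capitals.
Rtp2, right boundary, chr16:23984354-23984383, plus strand: cgtgacctaCCACTAGGTGGCggactcagt
Rtp2, left boundary, chr16:23899046-23899075, minus strand: aaagaagagCCACAAGGGGGCgcgcccaat
Atf4, left boundary, chr15:80076611-80076640, plus strand: tcctaacatCCACAAGGTGGCtcaacttca
Atf4, right boundary, chr15:80260870-80260899, minus strand: cacgagcgaCCAGCAGGTGGCagtgcaaaa
Eif2ak3, left boundary, chr6:70768944-70768973, minus strand: ctgctgtgcCCACTAGGGGGCtctcctgct
Hspa5, left boundary, chr2:34644907-34644936, plus strand: acggcccagCCAGGAGATGGCcctggttcc
Atf5, left boundary, chr7:44818260-44818289, plus strand: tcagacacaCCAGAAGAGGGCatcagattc
Ddit3, right boundary, chr10:127332264-127332293, minus strand: acccgcatgCCAGAAGAGGGCgtcagttcc
Eif2ak3, right boundary, chr6:70931954-70931983, plus strand: cccaggacaCCAGAAGAGGGCactgaagtc
Hspa5, left boundary, chr2:34645627-34645656, plus strand: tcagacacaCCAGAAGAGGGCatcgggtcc
Trib3, right boundary, chr2:152348460-152348489, plus strand: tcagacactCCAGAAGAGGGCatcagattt

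The first 6 lines lie in sequence that the reference does not mark as repeat. The last 5 all carry the core CCAGAAGAGGGC and lie in sequence written in lower case in the reference, its mark for repeats. This core made up 24 of the 42 matches at the 20 boundaries and 54.8% of the 8858 matches at all boundaries. All 24 were in masked sequence, and 99.6% were over the whole list. As background, the rodent B2 family of short interspersed repeats is known to carry a CTCF motif. No repeat annotation was used here, so the family of these copies was not tested. A core match of any kind lay within 10 kb of 17 of the 20 boundaries, beside 69.3% of flanking boundaries of all genes and 58% of the whole list. With the variable letters of the consensus left free, the count was 19 of 20, beside 71% of the whole list. For this pattern the share of flanking boundaries of all genes was not computed. An unmasked match lay at 10 of the 20, beside 35.6% of flanking boundaries of all genes and 30.6% of the whole list. These are matches of letters and not measured binding. The boundaries to the right of Rtp1, the left of Reep1 and the left of Trib3 held no core match.

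Of the export genes, Rtp1 lay nearest to a boundary. It lies on chromosome 16 at 23429133 to 23433960 on the plus strand, and a Weak boundary with a score of 0.481 (23450001 to 23455000) lay 23.4 kb to its right, beyond its 3′ end. That bin falls within Masp1, a gene of the lectin complement pathway. On the other side the interval ran for 352 kb to a Strong boundary of score 0.945 within Kng1. The interval of 375 kb held 4 other protein-coding TSSs, those of Eif4a2, Rfc4, Adipoq and St6gal1. The nearest of these, St6gal1, was 204 kb from Rtp1.

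Rtp2, at 23925548 to 23932394 on the minus strand, was the only protein-coding TSS in its interval of 90 kb. A gene was alone in its interval for 8.75% of all genes, and 78 of the 7556 intervals of the list (1.03%) were at most this long. Its left boundary was Weak (23890001 to 23895000, score 0.266), lay 39.9 kb from the TSS and covered part of Sst, the somatostatin gene. Its right boundary was Strong (23980001 to 23985000), lay 50.1 kb upstream of the TSS and covered part of Bcl6, a transcriptional repressor gene. That boundary had a score of 2.86, the highest of the 265 boundaries of chromosome 16 and the 23rd of the 7576. The first CTCF sequence above lies 1.87 kb from its midpoint and points away from Rtp2.

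Between the TSSs of Rtp1 and Rtp2, 503 kb apart, lay 2 boundaries, both Weak. The third member of the family at this locus, Rtp4, lies between them, 91.2 kb from Rtp1. The boundary of score 0.481 separated Rtp1 from Rtp4 and the boundary of score 0.266 separated Rtp4 from Rtp2, so the 3 genes fell in consecutive intervals of 375, 440 and 90 kb. The separation rests on Weak boundaries. With Strong boundaries alone, all 3 shared 1 interval of 905 kb with 9 protein-coding TSSs, and Rtp1 lay 352 kb from the nearest boundary.

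**Figure D2:**
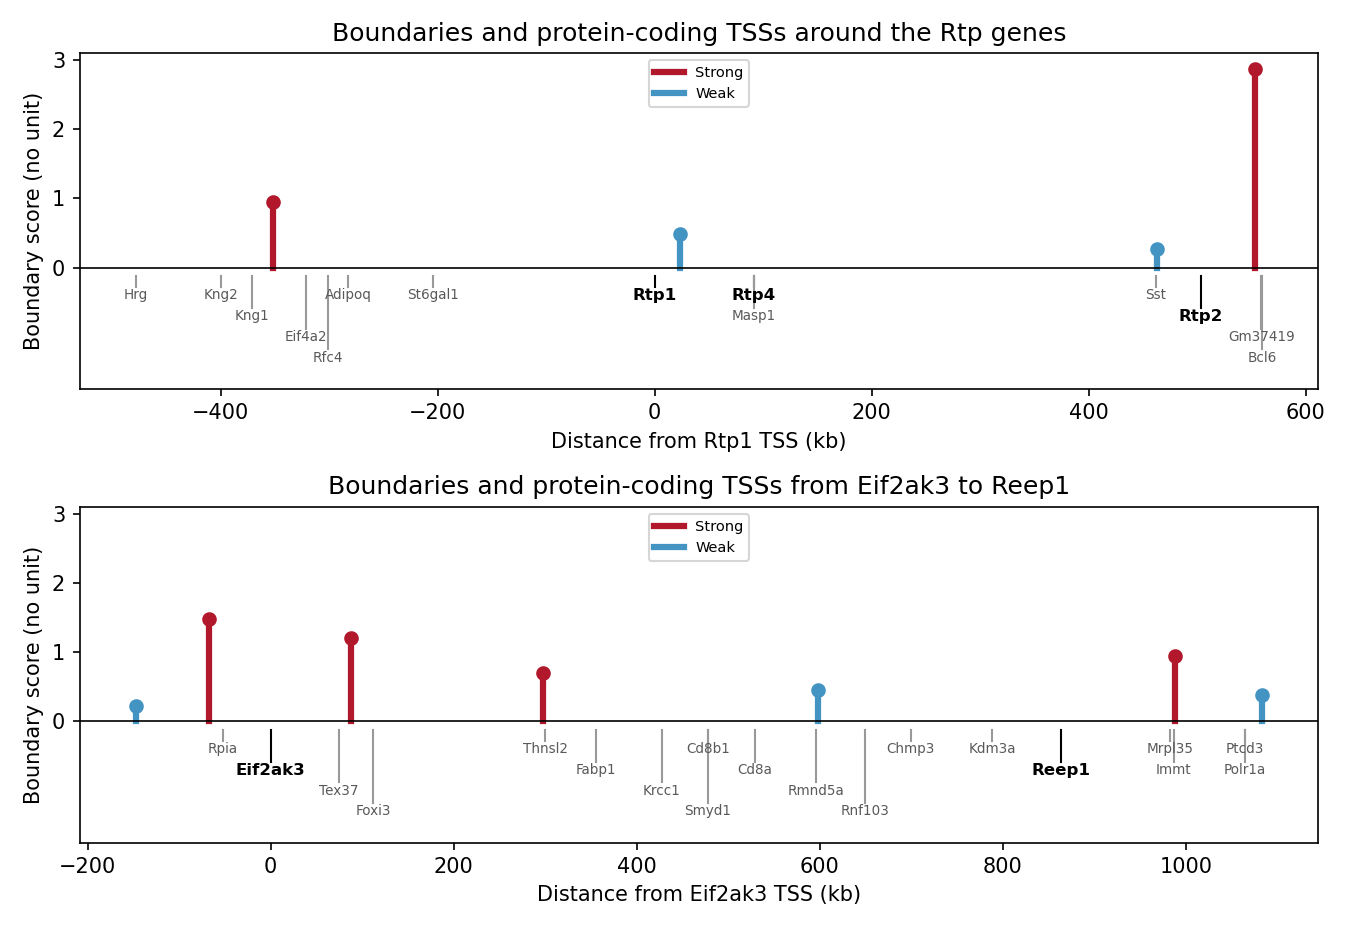
The vertical lines are boundaries, with height as the score (no unit; red Strong, blue Weak), and the labels below are protein-coding TSSs, by distance in kb from Rtp1 (top) and from Eif2ak3 (bottom). Each Rtp gene stands in a separate interval cut by low blue lines at 23.4 and 463 kb, and the Strong boundary of score 2.86 closes the Rtp2 interval, while 3 boundaries stand between Eif2ak3 and Reep1.

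Reep1 and Reep6 belong to the family of receptor expression enhancing proteins, which shape ER tubules. Reep1 (chromosome 6, 71707561 to 71810710, plus strand) is the longest of the 10 genes, 103 kb, and no boundary midpoint lay within it. Its flanking boundaries were Weak at 265 kb to the left (71440001 to 71445000, score 0.455) and Strong at 125 kb to the right (71830001 to 71835000, score 0.946). Both sat at promoters of other genes, 1.86 kb from the TSS of Rmnd5a and 1.17 kb from that of Immt, a subunit of the mitochondrial cristae-organising complex. The interval of 390 kb held 5 other TSSs, and the nearest was that of the histone demethylase gene Kdm3a at 74.6 kb. With Strong boundaries alone the distance was the same and the interval was 690 kb.

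Counted from the GENCODE TSS, Reep6 (chromosome 10, 80329953 to 80336441, plus strand) alone of the 10 genes had a divergent promoter within 1 kb. This was that of Pcsk4 at 0.455 kb. Such a partner was annotated for 6.82% of all genes. The surroundings of Reep6 were the most gene-dense of the 10, with 60 other protein-coding TSSs within 500 kb where the median gene had 16. The interval of 300 kb held 13 other TSSs. A Weak boundary lay 67.5 kb to the left (80260001 to 80265000, score 0.277), 1.01 kb from the TSS of Dazap1, and a Strong one 233 kb to the right (80560001 to 80565000, score 0.918), 0.941 kb from that of Rexo1. Without Weak boundaries the nearest was at 157 kb.

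Atf5 (chromosome 7, 44812256 to 44816658, minus strand) was alone among the 10 genes in having a boundary midpoint inside its body, which held for 13% of all genes. This boundary was Weak (44810001 to 44815000, score 0.407) and covered the 3′ part of the gene, 4.16 kb downstream of the TSS. Its midpoint lay closer to the 3′ end of Atf5 than the bin of 5 kb. Whether the boundary falls inside the gene is therefore not resolved. Upstream, the next boundary was 306 kb away, also Weak, with a score of 0.285. The interval of 310 kb held 21 other TSSs, more than that of any other gene of the 10, and 93.1% of all genes had at most this number in theirs. The neighbouring gene Il4i1 overlaps Atf5 on the opposite strand and starts 0.271 kb from its TSS. With Strong boundaries alone the interval was 720 kb with 44 TSSs, and Atf5 lay 319 kb from the nearest boundary.

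Atf4 (chromosome 15, 80255184 to 80257541, plus strand) was alone among the 10 genes in lying within 25 kb of a Strong boundary. That boundary (80265001 to 80270000, score 2.09) lay 12.3 kb downstream of the TSS, covered no protein-coding gene and ranked 9th of 305 on its chromosome. The left boundary was Strong too (80075001 to 80080000, score 1.49), lay 178 kb away and covered part of the ribosomal protein gene Rpl3. The interval of 190 kb held 7 other TSSs, of which Rps19bp1 at 9.13 kb was the nearest. The matches shown above point into the interval, that at the left boundary on the plus strand and that at the right one, its only match, on the minus strand. The left boundary had 3 other matches, 1 of them unmasked, and these pointed out of the interval.

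Ddit3 (chromosome 10, 127290774 to 127296288, plus strand) lay 41.7 kb from its nearest boundary, which was Strong with a score of 0.558, just above the cut between the classes, and fell within Gli1 (127330001 to 127335000). The left boundary, also Strong (127060001 to 127065000, score 1.19), lay 228 kb away and 1.03 kb from the TSS of the cell cycle kinase gene Cdk4. The interval of 270 kb held 14 other TSSs. The nearest, that of Mbd6, was divergent at 1.76 kb. Among the others was that of Os9, an ER lectin of protein degradation. Of the 4 core matches at the right boundary, 3 carried the masked core.

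Eif2ak3 (chromosome 6, 70844515 to 70905245, plus strand), the Perk gene, lay near the middle of its interval. Strong boundaries stood 67.0 kb to the left (70775001 to 70780000, score 1.47), within Rpia, and 88.0 kb to the right (70930001 to 70935000, score 1.21). The whole gene of 60.7 kb fits in this interval of 155 kb, and 13.8% of all genes lay in one at most as long. It held only 2 other protein-coding TSSs, Rpia and Tex37, both over 50 kb away. Reep1 is 863 kb farther along the same chromosome, with 3 boundaries and 12 TSSs between them. Of these boundaries 2 were Strong, so both genes stayed apart with Strong boundaries alone.

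Hspa5 (chromosome 2, 34771970 to 34777547, plus strand) had the longest interval of the 10, 460 kb, and 81.1% of all genes lay in one at most as long. Strong boundaries stood 124 kb to the left (34645001 to 34650000, score 1.77) and 336 kb to the right (35105001 to 35110000, score 0.587), the latter within Cntrl. The left boundary covered no protein-coding gene, and its nearest TSS, that of Gapvd1, was 108 kb away. All 3 core matches at this boundary were on the plus strand, pointing to Hspa5, but only 1 of them lay in unmasked sequence. The interval held 10 other TSSs, with Gapvd1 at 16.7 kb and Rabepk at 27.9 kb from Hspa5 on either side.

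Trib3 (chromosome 2, 152337422 to 152344032, minus strand) lay 3.47 kb from its nearest boundary. The boundary (152345001 to 152350000) lay just upstream of its TSS, between Trib3 and Nrsn2, with a Weak score of 0.217 that exceeded only 5.31% of the list. The 3 core matches there were all in masked sequence. On the other side a Strong boundary of score 1.11 lay 117 kb away, 0.662 kb from the TSS of the casein kinase gene Csnk2a1. The interval of 120 kb held 2 other TSSs, and 4.44% of all genes lay in one at most as long. With Strong boundaries alone Trib3 lay 103 kb from the nearest, in an interval of 220 kb.

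**Figure D3:**
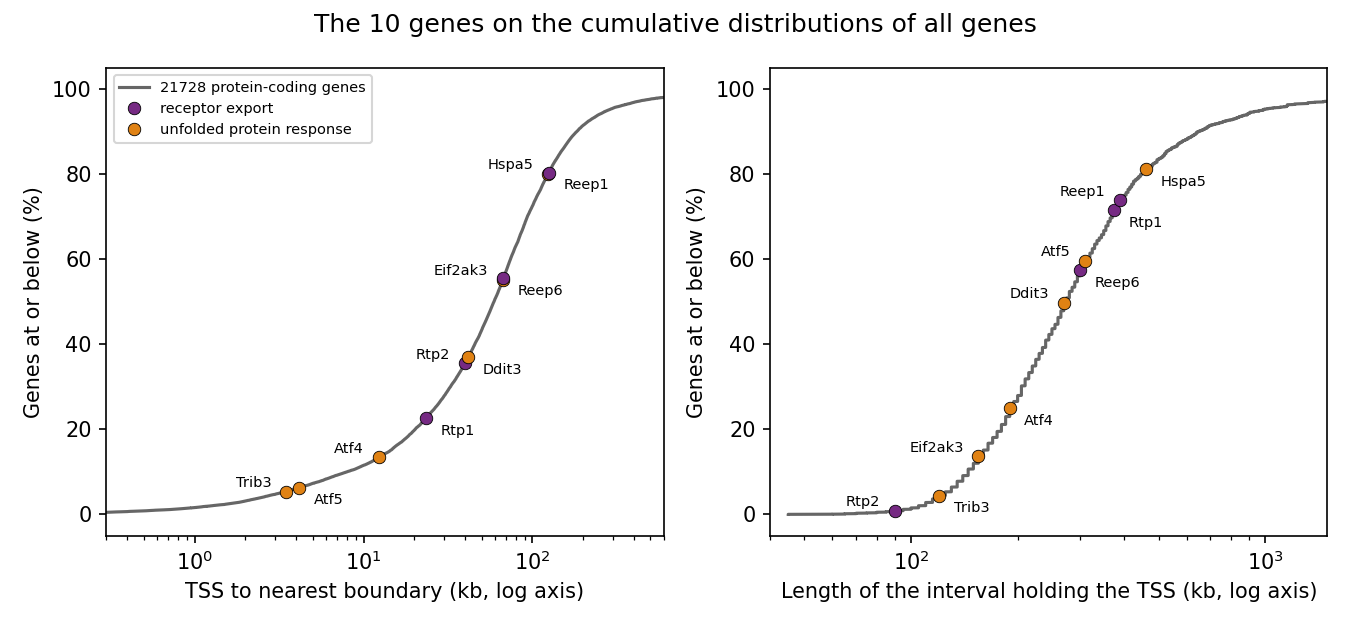
The grey curves are the cumulative shares (%) of all protein-coding genes by distance to the nearest boundary (left) and by interval length (right), both in kb on log axes, and the points are the 10 genes (purple export, orange response). The genes run along most of both curves, from Trib3 at 3.47 kb to Reep1 at 125 kb on the left and from Rtp2 at 90 kb to Hspa5 at 460 kb on the right.

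The order by distance was Trib3, Atf5, Atf4, Rtp1, Rtp2, Ddit3, Eif2ak3, Reep6, Hspa5 and Reep1. Differences below the bin of 5 kb cannot be ordered, which applies to Trib3 and Atf5, to Rtp2 and Ddit3, to Eif2ak3 and Reep6 (67.0 and 67.5 kb), and to Hspa5 and Reep1. The nearest boundary was downstream of the TSS for 6 genes and upstream for Reep6, Eif2ak3, Hspa5 and Trib3, beside 51.9% upstream among all genes. A protein-coding TSS lay within 10 kb of 14 of the 20 flanking boundaries, beside 45.1% of flanking boundaries of all genes. Core matches that pointed into the interval from both ends were found for Reep6, Atf4, Ddit3 and Hspa5, 4 of 10, beside 26.1% of all genes. At the left of Reep6, the left of Ddit3 and the right of Hspa5, the inward matches all carried the masked core. Only Atf4 had an unmasked inward match at both ends, and the share of all genes with such a pair was not computed.

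The start regions were searched for elements through which factors of the stress response and of olfactory neurons are known to act, and the matches are printed to show which genes hold such a sequence. RefSeq start windows on GRCm38.p6, of 250 bases before and 50 after a start, were matched for 8 of the 10 genes, with 9 windows in all. Rtp1 and Reep6 were not matched. Both strands were searched, and the shares are of 32851 windows of the same length. The following lines hold 30 bases each, 5′ to 3′ along the gene, with the element in capitals.
Hspa5, chr2:34772020-34772049, plus strand, full ATF6 element: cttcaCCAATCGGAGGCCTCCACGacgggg
Trib3, chr2:152344028-152344057, minus strand, ATF4 composite element: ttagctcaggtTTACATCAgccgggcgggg
Reep1, chr6:71707605-71707634, plus strand, Ebf element: gaggcagccctCCCTGGGGgttcggaggcc
Rtp2, chr16:23930978-23931007, minus strand, Ebf element: acctccgtcagCCCATGGGttggatctcac
The full ATF6 element, CCAAT and CCACG with 9 free bases between them, was found for Hspa5 alone and in 0.119% of all windows. Its last 5 letters, CCACG, were also searched alone. They occurred for Atf4, Atf5 and Hspa5, where the match is the end of the full element, and in 32.8% of all windows. The ATF4 composite element TGATGNAA was found for Trib3 alone, as its reverse complement 14 bases after the RefSeq start, and in 3.97% of all windows. The XBP1 element TGACGTGG was in none of the 9 windows and in 0.676% of all. The palindrome CCCNNGGG, the core of the site of the Ebf factors of olfactory neurons, was found for Hspa5, Reep1 and Rtp2 and in 13.7% of all windows. RefSeq and GENCODE starts differ for these genes. From the GENCODE TSS used for all distances, the Hspa5 and Reep1 elements printed above begin 55 bases downstream, the Trib3 element 14 bases upstream and the Rtp2 element 1398 bases downstream, inside the annotated gene. The Trib3 element lay outside the nearby boundary bin.

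Other genes of the pathway were counted by the same distance, in 6 lists of 81 genes. Of these 22 (27.2%) lay within 25 kb, beside the 23.9% of all genes, and their median distance was 53.8 kb. No gene of the 7 export relatives lay within 50 kb, beside 43.2% of all genes. Their nearest was Reep5 at 56.6 kb, Rtp4 lay at 67.8 kb, Rtp3 at 96.9 kb and Ric8b at 99.9 kb, and the farthest were Reep3 at 226 kb, Reep2 at 122 kb and Reep4 at 103 kb. Among 6 genes of the feedback on receptor choice, 3 were near. The transcription factor genes Emx2 (5.87 kb) and Ebf1 (9.82 kb) were each beside a Strong boundary, of scores 2.50 and 2.31. Lhx2 was at 13.2 kb. The other 3 were the demethylase gene Kdm1a at 29.8 kb, the cofactor gene Ldb1 at 37.3 kb and Adcy3 at 50.6 kb.

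**Figure D4:**
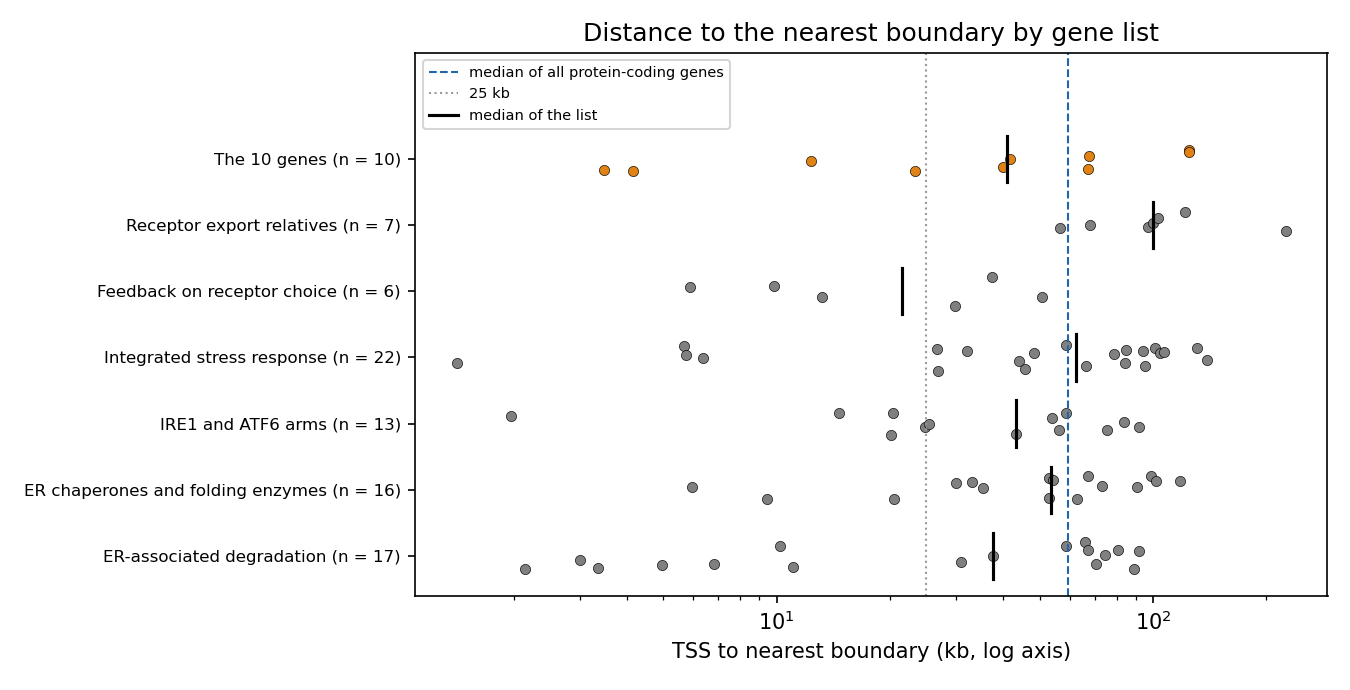
Points are genes, by distance from TSS to nearest boundary in kb on a log axis, with a row per list, a black bar at the list's median, a dotted line at 25 kb and a dashed line at the median of all protein-coding genes, 59.3 kb. The 10 genes are in orange, the 7 export relatives all lie beyond 50 kb, and the other lists have points on both sides of the dotted line.

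Of the 22 genes of the integrated stress response around Perk, 4 (18.2%) were near a boundary, beside 23.9% of all genes. These 4 lay within 10 kb, as did 11.5% of all genes, and their nearest boundaries were Strong, as were those of 64.4% of all genes. They were Cebpb (1.41 kb), Eif2s1 (5.68 kb), which encodes the eIF2alpha that Perk phosphorylates, Asns (5.75 kb) and Ppp1r15b (6.36 kb), a phosphatase subunit that reverses that mark. The farthest were Eif2b4 at 139 kb, Eif2ak4 at 131 kb and Eif2b2 at 107 kb. The other arms of the response, through Ire1 and Atf6, had 5 of 13 genes near (38.5%). Map3k5 lay at 1.97 kb and Ern1, the Ire1 gene, at 14.6 kb. The farthest were Creb3l1 at 92.0 kb, Creb3l3 at 83.6 kb and Traf2 at 75.6 kb.

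ER chaperones and folding enzymes had 3 of 16 genes near (18.8%), beside 23.9% of all genes. Pdia6 lay at 5.96 kb and Calr at 9.43 kb. Creld2 at 118 kb, Canx at 102 kb and Pdia3 at 98.7 kb were the farthest. ER-associated degradation, which removes misfolded proteins, had 7 of 17 (41.2%) near, beside the same 23.9% of all genes. Within 10 kb, beside 11.5% of all genes, were Selenos (2.15 kb), Vcp (3.01 kb) and Sel1l (3.34 kb, beside a boundary of score 2.40). Derl1 (4.95 kb) and Erlec1 (6.83 kb) were within 10 kb too. The farthest were Edem2 at 92.0 kb, Herpud1 at 88.9 kb and Syvn1 at 80.9 kb. The lists hold few genes, and no difference between them was tested.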

How the data were processed

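The authors called boundaries on 1 contact matrix made from the combined contacts of both replicates on GRCm38, per the labels' design text. The deposited score has no stated unit and is compared only within the list. No source used here names the caller, its window or the aligner. The matrix and the insulation and compartment tracks were not used here. Since both replicates were pooled, no test was possible.

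Positions were 1-based, a boundary was the midpoint of its bin of 5 kb, and an interval ran between neighbouring midpoints. A TSS was the 5′ end of the GENCODE M21 gene; 27 protein-coding entries that shared a symbol with another were left out, 1 of Ddit3 among them. Distances were computed with Python 3.11.15, numpy 2.4.6 and pandas 2.3.3 and tested on simulated data. The reference strain is C57BL/6J, so rearrangements private to 129P2/OlaHsd are not seen. The genes and lists were chosen with earlier results of these data known. The rule for named genes covers all 10, their neighbours, the genes at their boundaries and, of each list, those within 10 kb and the 3 farthest; some neighbours are left out of the text for length. Ern1, Os9 and the remaining genes of the lists on export and receptor choice were named after their values were seen. Alternatives were Strong or high-scoring boundaries alone, no boundaries near assembly gaps, any transcript start, bin edges, other distances and other backgrounds.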

Additional observations from a re-analysis of the deposited data

How the results depend on the processing

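The count of genes within 25 kb, the median distance and the median interval moved with the class of boundary used. With Strong boundaries alone they were 1 gene, 114 kb and 425 kb, where all genes had 15.8%, 100 kb and 480 kb. With the 3788 boundaries of highest score the values of the 10 genes were the same, 1 gene, 114 kb and 425 kb. The class is a cut of the score, so these boundaries are all among the 4045 Strong ones, and this setting is not a separate check. All genes had 14.9%, 109 kb and 510 kb with these boundaries. Fewer boundaries lengthen distances by construction. In both cases the distances of 5 genes (Rtp1, Rtp2, Reep6, Atf5 and Trib3) and the intervals of 6 moved by more than the bin of 5 kb. At 10 kb the count was 2, where all genes had 11.5%. The count of 4 was the same without the 20 boundaries near assembly gaps, with any transcript start and with bin edges. Among all genes the shares in these settings were 23.8%, 26.3% and 25.8%, in that order. All 10 distances moved by at most 5 kb. In the main setting, the share of genes within 25 kb was 19.7% over genes of any type. It was 24.2% on autosomes and 22.7% on the chromosomes of the 10 genes. No paired analysis was possible because the deposited list pools both replicates, and for the same reason no replicate could be left out. Distances are limited by the bin, and the depth is unknown.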

Other observations

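None of the 10 intervals held an olfactory receptor gene. The share of all genes with a receptor gene in their interval was not computed. Neither were the receptor distances of all genes, so nothing is read from the values below. The nearest protein-coding receptor gene was 1301 kb away for Reep6 (Olfr57, with 8 boundaries between), 1602 kb for Hspa5 (Olfr338, 7 boundaries) and 1699 kb for Ddit3 (Olfr9, 8 boundaries). For Rtp1 and Rtp2 it was Olfr171, at 3799 and 4302 kb, and for the other 5 genes it was at least 17940 kb away.

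The interval of Reep6 had the highest GC content of the 10, 54.2%, followed by Atf5 at 51.8% and Ddit3 at 50.2%, the genes with the most protein-coding TSSs in their intervals. Reep1 had the lowest, 42.8%. Repeat-masked sequence made up 23.9% of the Reep6 interval and 33.6% of the Trib3 interval, with the others between.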
